A study of Homo sapiens with 18 samples.

Results

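The genes described here are 41 long human genes for neuronal adhesion, axon guidance and synapses, taken from a named list, out of 19970 protein-coding genes of chromosomes 1 to 22 and X. They are the contactins and contactin-associated proteins, the guidance receptors and ligands of the SLIT, ROBO, DCC and UNC5 families, immunoglobulin-domain adhesion proteins, synaptic organisers, neuregulins with their receptor ERBB4, the CSMD and LRP1B giants, and a group of catenins, dipeptidyl-peptidase-like subunits and others. All 41 were found. Their bodies spanned 283 kb (CNTNAP4) to 2304 kb (CNTNAP2), with a median of 1130 kb and 47.1 Mb in all, while the median protein-coding gene spanned 24.2 kb. Each of the 41 was at least 250 kb long, so values are also set beside all 998 genes of that length.

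The cells were U937, a human monocytic cell line. DKO cells were knocked out for SUV39H1 and SUV39H2, SKO cells for SUV39H1 alone, and sgControl cells carried a control guide. Chromatin immunoprecipitation and sequencing (ChIP-seq) of the histone marks H3K9me3 and H3K27me3 gave 2 libraries per genotype and mark, 12 in all, and wild-type (WT) cells gave 2 SETDB1 libraries. Nothing in the labels says that the 2 libraries of a genotype are separate cultures, and their spread may therefore be technical. The sources used here do not say if a knockout line was a clone or a pool. The domain lists hold no measure of SUV39H1 or SUV39H2 RNA or protein, so they cannot check the knockouts, and both genes had 0% of their body in domains of either mark in every library.

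H3K9me3 marks heterochromatin. SUV39H1 and SUV39H2 are paralogous methyltransferases that deposit it over broad regions, and SETDB1 is a further H3K9 methyltransferase, known for silencing transposable elements. H3K27me3 is set by Polycomb repressive complex 2 and covers developmental genes of other lineages. Contactins and the IgLON proteins (LSAMP, NTM, OPCML and NEGR1) are adhesion molecules of the neuronal surface. SLIT ligands repel growing axons through ROBO receptors, and DCC and UNC5 proteins are receptors for netrins.

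The promoters on which the data bear are shown first. A table of RefSeq promoters on GRCh38.p14 held 300 bases, 250 before and 50 after the start site, for 31 of the 41 genes. For CNTN1, CTNNA3, DLG2, DPP6 and ROBO2 that start site lay inside the gene body, 67.4 kb (CTNNA3) to 1360 kb (DLG2) from its 5′ end. In 3 genes, CNTN4, ROBO1 and LSAMP, the window of 300 bases lay wholly in H3K9me3 domains of both sgControl libraries and in no H3K9me3 domain of any DKO or SKO library. The promoter of CNTN1 was added after its values were seen, because H3K27me3 domains covered it in both DKO and both SKO libraries and in neither sgControl library. The 4 sequences run 5′ to 3′ on the strand of the gene, and capitals mark each CG dinucleotide.
CNTN4, chr3:2098616-2098915, plus strand: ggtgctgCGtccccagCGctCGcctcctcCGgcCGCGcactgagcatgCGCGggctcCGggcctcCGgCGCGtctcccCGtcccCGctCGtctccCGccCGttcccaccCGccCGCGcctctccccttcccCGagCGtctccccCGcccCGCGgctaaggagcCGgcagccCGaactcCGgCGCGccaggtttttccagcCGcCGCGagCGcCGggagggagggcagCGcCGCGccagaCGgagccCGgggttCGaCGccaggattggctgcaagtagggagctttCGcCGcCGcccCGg
ROBO1, chr3:79767949-79768248, minus strand: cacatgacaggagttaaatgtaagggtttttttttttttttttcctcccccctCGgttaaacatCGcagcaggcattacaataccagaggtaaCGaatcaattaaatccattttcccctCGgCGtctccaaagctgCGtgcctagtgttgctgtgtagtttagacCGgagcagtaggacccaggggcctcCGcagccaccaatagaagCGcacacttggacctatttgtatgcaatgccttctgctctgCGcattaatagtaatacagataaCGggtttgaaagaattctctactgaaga
LSAMP, chr3:116445438-116445737, minus strand: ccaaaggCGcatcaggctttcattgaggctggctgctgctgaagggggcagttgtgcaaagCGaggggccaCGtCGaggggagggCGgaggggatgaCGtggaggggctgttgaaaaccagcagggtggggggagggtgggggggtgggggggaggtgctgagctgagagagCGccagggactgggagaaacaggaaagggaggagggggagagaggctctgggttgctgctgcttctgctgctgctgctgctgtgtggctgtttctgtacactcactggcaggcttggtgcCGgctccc
CNTN1, chr12:40827934-40828233, plus strand: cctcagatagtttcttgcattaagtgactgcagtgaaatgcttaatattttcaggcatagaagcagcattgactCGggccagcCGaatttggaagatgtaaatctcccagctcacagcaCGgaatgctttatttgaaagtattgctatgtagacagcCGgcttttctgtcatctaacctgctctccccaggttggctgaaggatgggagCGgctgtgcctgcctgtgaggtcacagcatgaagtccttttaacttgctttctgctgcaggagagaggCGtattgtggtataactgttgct

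The CNTN4 promoter held 46 CG dinucleotides at 77.3% G+C, the ROBO1 promoter 11 at 45.3%, the LSAMP promoter 8 at 64.7% and the CNTN1 promoter 6 at 47.0%. The promoters that lost H3K9me3 therefore ranged from dense to sparse in CG. Over the 31 promoters the median was 16 CG dinucleotides and 59.0% G+C, beside 22 and 62.7% over 15811 promoters of protein-coding genes. At least 10 CG dinucleotides stood in 67.7% of the 31 and in 73.0% of all 15811. The letters TATAAA, sought on both strands, stood in 0 of the 31 windows and in 9.64% of all windows of that length. H3K27me3 domains covered 25 of the 31 promoters wholly in both DKO libraries, 25 in both SKO libraries and 25 in both sgControl libraries, while H3K9me3 domains covered 5 in DKO, 3 in SKO and 10 in sgControl. CNTN1, CNTNAP4, SLIT2 and NRG3 made up the difference between the H3K27me3 sets of 25. Domain coverage of promoters, including those that lost H3K9me3, was counted in the 31 alone. It therefore cannot be set against all promoters.

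Across whole libraries, reads inside domains numbered 16.5 to 23.6 M (mega, 1e6) for H3K9me3 and 47.9 to 70.7 M for H3K27me3. H3K9me3 domains covered 791.1 ± 5.01 Mb in DKO, 754.6 ± 1.55 Mb in SKO and 1028 ± 22.1 Mb in sgControl cells (SD, n = 2 here and below). H3K27me3 domains covered 1212 ± 19.3 Mb in DKO, 1205 ± 7.21 Mb in SKO and 1060 ± 3.50 Mb in sgControl cells. Counts of changed genes are therefore also given with all lists of a mark brought to 1 covered length by dropping the domains of lowest score. Chromosome 7 stood apart, with 25.19 ± 0.157 Mb of H3K9me3 in DKO, 58.25 ± 0.197 Mb in SKO and 75.42 ± 1.62 Mb in sgControl cells. Its H3K27me3 length was higher in SKO alone, with 61.27 ± 1.21 Mb in DKO, 74.92 ± 0.167 Mb in SKO and 61.56 ± 0.0696 Mb in sgControl cells. Both differences touch CNTNAP2 and DPP6. The lists carry no spike-in factor and cannot show the total amount of a mark, and bulk chromatin cannot separate loss in every cell from loss in some cells. Of 15 myeloid marker genes, all had 0% H3K27me3 in every library and 11 were under 25% H3K9me3 throughout. CD33, ITGAM, PTPRC and RUNX1 were the other 4.

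In sgControl cells most of the length of the 41 genes carried H3K27me3 and much of it carried H3K9me3 as well. The mean share of the gene body in H3K9me3 domains was 32.10 ± 1.74% in DKO, 21.62 ± 0.549% in SKO and 48.02 ± 0.515% in sgControl cells. The same share for H3K27me3 was 86.50 ± 0.853% in DKO, 87.54 ± 0.217% in SKO and 83.88 ± 0.0986% in sgControl cells. The shift was thus in H3K9me3, while H3K27me3 covered over 80% of the average body in each genotype. Over all genes the H3K9me3 means were 16.24% in DKO, 16.06% in SKO and 16.57% in sgControl cells, and over genes of at least 250 kb they were 31.15% in DKO, 29.21% in SKO and 40.61% in sgControl cells. With equal covered length the H3K9me3 means of the 41 were 29.9 ± 1.65% in DKO, 21.6 ± 0.599% in SKO and 34.7 ± 1.15% in sgControl cells, so the order remained and the gap to sgControl narrowed. Those for H3K27me3 were then 81.0 ± 0.232% in DKO, 82.8 ± 0.235% in SKO and 83.7 ± 0.304% in sgControl cells, with sgControl the highest.

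**Figure D1:**
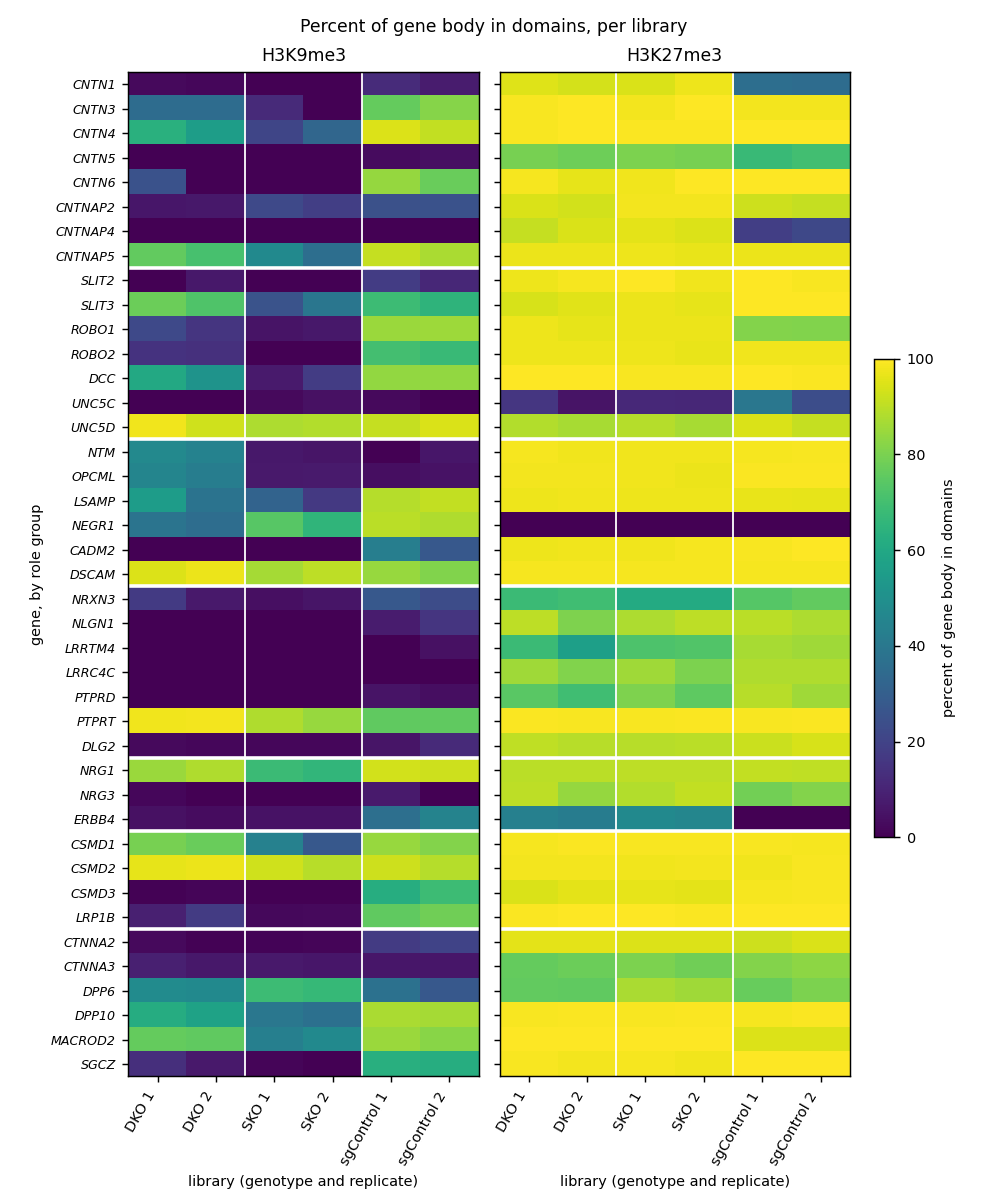
Percent of each gene body in H3K9me3 domains (left) and H3K27me3 domains (right). Columns are the 2 DKO, 2 SKO and 2 sgControl libraries, and rows are the 41 genes by role, with white lines between role groups. H3K27me3 was at or above 75% in every library for 32 of the 41 genes, while 17 genes in sgControl, 4 in SKO and 7 in DKO reached 75% H3K9me3 in both libraries.

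A loss or a gain was called where every library of one genotype lay below every library of the other, with at least 25 percentage points of the gene body between the nearest pair. A loss was possible in the 24 genes with at least 25% H3K9me3 in both sgControl libraries. In SKO, 17 of these 24 lost H3K9me3, where 24.6% of all genes and 34.7% of genes of at least 250 kb that could be called did so. In DKO, 12 of the 24 lost it, where 23.1% of all genes and 32.1% of the long genes did so. The losses in both knockouts covered 11 genes, CADM2, CNTN3, CNTN4, CNTN6, CSMD3, ERBB4, LRP1B, LSAMP, ROBO1, ROBO2 and SGCZ. Another 6 were called lost in SKO and not in DKO, namely CNTNAP5, CSMD1, DCC, DPP10, MACROD2 and SLIT3, and NEGR1 was called lost in DKO and not in SKO. Both knockouts share the same sgControl libraries.

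H3K9me3 gains were few. In SKO, DPP6 was the 1 gain among 24 genes that could gain, where 4.77% of all genes and 3.18% of the long genes gained. In DKO, NTM and OPCML were the 2 gains among 24, where 4.46% of all genes and 4.83% of the long genes gained. The median difference over the 41 genes was −17.53 percentage points in SKO and −7.79 in DKO, beside 0.00 in both over all genes and −4.92 in SKO and −3.77 in DKO over the long genes.

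With equal covered length, 9 of 18 genes that could be called lost H3K9me3 in SKO, where 17.6% of all genes did, and 6 of 18 in DKO, where 19.3% did. The 9 in SKO were CNTN3, CNTN4, CNTN6, DCC, DPP10, LRP1B, LSAMP, ROBO1 and ROBO2. The 6 in DKO were CNTN3, CNTN6, LRP1B, LSAMP, NEGR1 and ROBO1. Gains under that setting numbered 2 of 32 in SKO (DPP6 and PTPRT) and 6 of 32 in DKO (DPP6, DSCAM, NTM, OPCML, PTPRT and SLIT3), beside 7.48% of all genes in SKO and 6.55% in DKO. Thus 9 of the 17 SKO losses and 6 of the 12 DKO losses were still called when the longer sgControl lists were shortened.

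The second measure was a limma fit to the percent covered in the 6 libraries of the mark, with Benjamini-Hochberg adjustment over 7655 genes, of which 38 were among the 41. At an adjusted p of 0.05, 22 of the 38 were lower and 2 higher in SKO, where 13.6% and 18.7% of genes tested were. In DKO, 16 were lower and 4 higher, where 13.4% and 15.6% of genes tested were. Against SKO, 2 of the 38 were lower and 8 higher in DKO, where 3.42% and 2.63% of genes tested were.

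DKO and SKO differed from each other in 7 of the 41 genes for H3K9me3. CSMD1, DCC, MACROD2, NTM, OPCML and SLIT3 were called higher in DKO, 6 of 37 genes that could be. So were 1.65% of all genes and 5.15% of the long genes. NEGR1 was called lower in DKO, 1 of 12 that could be, where 7.26% of all genes and 7.79% of the long genes were. Among the 6 genes called lost in SKO and not in DKO, the difference itself was called for CSMD1, DCC, MACROD2 and SLIT3 and not for CNTNAP5 or DPP10. Over the 41 genes, the median difference between DKO and SKO was 7.16 points, beside 0.00 over all genes and 0.00 over the long genes. For H3K27me3 no gene of the 41 was called lower in DKO than in SKO (0 of 39), where 2.22% of all genes and 0.564% of the long genes were. None was called higher (0 of 5), where 0.843% of all genes and 0% of the long genes were. The limma fit called 1 lower, DPP6, and 1 higher, NRXN3, of 40 tested, where 2.99% and 5.24% of genes tested were. At an unadjusted p under 0.05, 273 of the 3685 genes tested were lower in DKO than in SKO and 410 higher.

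Contactins are immunoglobulin adhesion proteins anchored to the neuronal membrane, and contactin-associated proteins are their neurexin-like partners. Of 8 such genes, 4 lost H3K9me3 in SKO (CNTN3, CNTN4, CNTN6 and CNTNAP5) and 3 in DKO (the same without CNTNAP5). CNTN6 (chr3:1093024-1404217) had 25.2% and 0% of its body in H3K9me3 domains in DKO, 0% and 0% in SKO, and 84.1% and 77.2% in sgControl libraries. The knockout libraries lay far below both sgControl libraries, and 1 DKO library retained 4 domains where the other had none. The difference was −80.66 points in SKO (SE 9.62, limma adjusted p = 0.0101) and −68.07 points in DKO (SE 9.62, limma adjusted p = 0.0158). CNTN3 (chr3:74262568-74614659) had 35.2% and 35.2% in DKO, 12% and 0% in SKO, and 76.2% and 82.0% in sgControl libraries, with no overlap between any pair of genotypes. Its difference was −73.06 points in SKO (SE 5.02, limma adjusted p = 0.0029) and −43.89 in DKO (SE 5.02, limma adjusted p = 0.00957).

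CNTN4, whose promoter is printed above, had 63.6% and 55.7% in DKO, 20.8% and 33.2% in SKO, and 94.7% and 90.7% in sgControl libraries. CNTN6 and CNTN4 are neighbours on chromosome 3, and the 695 kb between them had the same order of values, with 5.76% and 17.4% in H3K9me3 domains in DKO, 3.57% and 2.99% in SKO, and 80.0% and 79.4% in sgControl libraries. CNTNAP5 had 75.9% and 71.0% in DKO, 47.4% and 36.2% in SKO, and 91.1% and 87.4% in sgControl libraries. H3K27me3 covered at least 96.1% of CNTN3, CNTN4, CNTN6 and CNTNAP5 in every library. In SKO, then, H3K9me3 was lost in these 4 genes from bodies that H3K27me3 covered in every genotype.

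CNTN1 and CNTNAP4 changed in the other mark. CNTN1 (chr12:40692439-41072415) had 95.2% and 93.7% of its body in H3K27me3 domains in DKO, 94.5% and 97.3% in SKO, and 36.1% and 35.5% in sgControl libraries. The difference was 60.10 points in SKO (SE 1.23, limma adjusted p = 3.55e-05) and 58.63 in DKO (SE 1.23, limma adjusted p = 3.74e-05). CNTNAP4 (chr16:76277401-76560757) had 91.2% and 94.3% in DKO, 95.8% and 94.6% in SKO, and 18.6% and 21.8% in sgControl libraries, a gain of 74.99 points in SKO (SE 1.74, limma adjusted p = 5.27e-05) and 72.56 in DKO (SE 1.74, limma adjusted p = 5.62e-05). Neither could be called lost for H3K9me3, since CNTN1 reached at most 12.4% in any library and CNTNAP4 was at 0% in all 6. The limma fit did put CNTN1 lower for H3K9me3 in SKO, with a difference of −10 points (SE 2.14, adjusted p = 0.0385). The start site of CNTN1 used here lay 136 kb inside the gene body. It fell in a 44.8 kb stretch, chr12:40820001-40864800, that was in H3K27me3 domains of every knockout library and of no sgControl library. A stretch of 122 kb with the same pattern, chr12:40692439-40814400, lay upstream of that start site and within the gene body.

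CNTN5 and CNTNAP2 made up the rest of the group. CNTN5 had no H3K9me3 in either knockout and 2.81% and 4.04% in sgControl libraries. CNTNAP2, on chromosome 7, had 5.95% and 6.29% H3K9me3 in DKO, 22% and 18.4% in SKO, and 24.8% and 25.2% in sgControl libraries. Its H3K27me3 share stayed at or above 91.4% in every library, and the part of the chromosome-wide H3K9me3 difference in its DKO value was not tested.

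In the guidance group, ROBO1, ROBO2, DCC and SLIT3 lost H3K9me3 in SKO, and ROBO1 and ROBO2 also in DKO, of 7 genes. ROBO1 (chr3:78597239-79767998), a SLIT receptor, had 22.2% and 15.6% in DKO, 5.26% and 6.49% in SKO, and 84.8% and 85.2% in sgControl libraries. The nearest sgControl and knockout libraries stood 62.6 points apart. The difference was −79.16 points in SKO (SE 2.74, limma adjusted p = 0.00046) and −66.11 in DKO (SE 2.74, limma adjusted p = 0.000814). Its paralog ROBO2 had 14.5% and 13.8% in DKO, 0% and 0% in SKO, and 70.2% and 67.8% in sgControl libraries. The 947 kb between the 2 genes had 24.4% and 14.4% in DKO, 2.87% and 3.12% in SKO, and 78.1% and 66.4% in sgControl libraries, so the lower share extended beyond the gene ends.

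DCC (chr18:52340197-53535899), a netrin receptor, had 60.3% and 51.2% in DKO, 7.09% and 17.9% in SKO, and 83.7% and 83.7% in sgControl libraries. SKO libraries were lowest and DKO libraries lay between the others, without overlap. The difference was −71.20 points in SKO (SE 5.29, limma adjusted p = 0.00342), and DKO stood 43.31 points above SKO (SE 5.29, limma adjusted p = 0.0349). Against sgControl, the DKO difference of −27.89 points missed the call because the nearest pair differed by 23.3 points, although the limma fit passed it (SE 5.29, adjusted p = 0.0311). SLIT3, a ROBO ligand, had 77.4% and 72.5% in DKO, 25.5% and 39.4% in SKO, and 68.7% and 65.2% in sgControl libraries. SKO was thus the low group for SLIT3, and DKO lay above sgControl by less than the call needs.

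SLIT2 had 0% and 6.51% H3K9me3 in DKO, 0% and 0% in SKO, and 17.6% and 11.3% in sgControl libraries. UNC5D stayed at or above 87.5% H3K9me3 in every library and was among the genes with both marks throughout. UNC5C carried little of either mark, with at most 4.55% H3K9me3 in any library, and 15.9% and 5.38% H3K27me3 in DKO, 11.4% and 11.2% in SKO, and 39.7% and 23.6% in sgControl libraries.

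The immunoglobulin-domain adhesion genes went in both directions. LSAMP (chr3:115802374-116445487) had 55.2% and 38.2% H3K9me3 in DKO, 32.0% and 16.7% in SKO, and 88.7% and 91.0% in sgControl libraries. SKO was lowest, with a mean 22.4 points below DKO, and the nearest SKO and DKO libraries stood 6.22 points apart, too little for a call. The difference from sgControl was −65.54 points in SKO (SE 8.50, limma adjusted p = 0.0122) and −43.15 in DKO (SE 8.50, limma adjusted p = 0.0341). CADM2, a synaptic adhesion molecule, had 0% in all knockout libraries, against 42.7% and 27.5% in sgControl libraries. NEGR1 (chr1:71395943-72282539) had 38.6% and 35.7% in DKO, 73.9% and 65.6% in SKO, and 89.6% and 88.2% in sgControl libraries. Here DKO was lowest, with a difference of −51.70 points from sgControl (SE 3.46, limma adjusted p = 0.00275) and −32.57 points from SKO (SE 3.46, limma adjusted p = 0.0254). NEGR1 was also the 1 gene of the 41 with no H3K27me3 in any library.

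NTM (chr11:131370615-132336822) and OPCML (chr11:132414981-133532501), neighbouring IgLON genes, gained H3K9me3 in DKO. NTM had 46.9% and 44.3% in DKO, 6.46% and 5.55% in SKO, and 0% and 5.88% in sgControl libraries. OPCML had 45.6% and 42.2% in DKO, 6.66% and 7.09% in SKO, and 3.65% and 4.80% in sgControl libraries. Both were at or above 42.2% in DKO and at most 7.09% in SKO and sgControl libraries. The gain over sgControl was 42.67 points for NTM (SE 2.65, limma adjusted p = 0.00229) and 39.70 for OPCML (SE 1.78, limma adjusted p = 0.000981). The 78.2 kb between them had 0% H3K9me3 in all 6 libraries and 88.7% to 100% H3K27me3, so the H3K9me3 gains in the 2 bodies were not 1 joined domain. Among the upper 50% of domains by score neither gene was called gained. DSCAM had 94.7% and 97.1% in DKO, 86.6% and 90.0% in SKO, and 84.6% and 81.2% in sgControl libraries.

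None of the 7 synaptic organisers and scaffolds was called for either mark by the rule of 25 points, whereas the limma fit passed some of them. It put H3K9me3 lower for NRXN3 in SKO and higher for PTPRT in both knockouts, and H3K27me3 lower for NRXN3 in both and for LRRTM4 and PTPRD in DKO. NLGN1, LRRTM4, LRRC4C and PTPRD had no H3K9me3 in any knockout library and at most 15.5% in sgControl libraries, and LRRC4C had none there either. NRXN3, a presynaptic neurexin, had 17.0% and 6.88% H3K9me3 in DKO, 4.10% and 5.47% in SKO, and 27.5% and 23.1% in sgControl libraries. PTPRT, a receptor phosphatase, had 97.7% and 98.1% in DKO, 87.9% and 84.5% in SKO, and 75.4% and 75.7% in sgControl libraries. DLG2, a postsynaptic scaffold, had at most 11.9% in any library. This group had little H3K9me3 to lose apart from PTPRT, which stood highest in DKO. For H3K27me3, LRRTM4 had 68.3% and 56.3% in DKO, 72.1% and 72.8% in SKO, and 86.8% and 85.9% in sgControl libraries, and PTPRD had 74.4% and 69.2% in DKO, 80.5% and 75.1% in SKO, and 89.1% and 85.8% in sgControl libraries. Both were lower in every knockout library than in either sgControl library, by less than the call needs.

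ERBB4 (chr2:211375717-212538802), a receptor for neuregulins, was the 1 gene called lost for H3K9me3 and gained for H3K27me3, and it was so called in both knockouts. It had 4.40% and 3.16% H3K9me3 in DKO, 4.81% and 4.81% in SKO, and 36.6% and 44.9% in sgControl libraries. It had 43.5% and 41.9% H3K27me3 in DKO, 47.3% and 45.8% in SKO, and 0% and 0% in sgControl libraries. The H3K27me3 gain was 46.54 points in SKO (SE 0.87, limma adjusted p = 2.71e-05) and 42.72 in DKO (SE 0.87, limma adjusted p = 3.4e-05), and the H3K9me3 difference was −35.93 points in SKO (SE 3.27, limma adjusted p = 0.00541) and −36.97 in DKO (SE 3.27, limma adjusted p = 0.00519). NRG1, a ligand of ERBB receptors, had 85.0% and 87.9% H3K9me3 in DKO, 68.2% and 66.0% in SKO, and 93.2% and 92.3% in sgControl libraries, and missed the call in SKO with a nearest pair 24.1 points apart. NRG3 had at most 7.12% H3K9me3 in any library.

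Among the giants, LRP1B and CSMD3 lost H3K9me3 in both knockouts and CSMD1 in SKO, of 4 genes. LRP1B (chr2:140231423-142131016), a member of the LDL receptor family, had 8.72% and 17.5% in DKO, 2.11% and 2.65% in SKO, and 75.7% and 78.5% in sgControl libraries, with a difference of −74.68 points in SKO (SE 3.57, limma adjusted p = 0.00113) and −63.96 in DKO (SE 3.57, limma adjusted p = 0.00171). CSMD3 (chr8:112222928-113436939), a large transmembrane protein of CUB and sushi domains, had 0.395% and 1.52% in DKO, 0% and 0% in SKO, and 62.4% and 68.4% in sgControl libraries. Both genes were nearly free of H3K9me3 domains in SKO. CSMD1 had 79.4% and 77.1% in DKO, 44.0% and 27.6% in SKO, and 84.6% and 81.5% in sgControl libraries. CSMD2 stayed at or above 88.7% in every library.

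In the last group, SGCZ, a sarcoglycan, lost H3K9me3 in both knockouts and DPP10 and MACROD2 in SKO, of 6 genes. SGCZ (chr8:14084845-15238431) had 13.4% and 7.0% in DKO, 1.25% and 0% in SKO, and 63.2% and 62.3% in sgControl libraries. DPP10 (chr2:114442641-115845780), an auxiliary subunit of Kv4 potassium channels, had 62.1% and 57.8% in DKO, 39.8% and 36.9% in SKO, and 87.2% and 86.5% in sgControl libraries. Its DKO difference of −26.94 points passed the limma fit (SE 2.28, adjusted p = 0.00473) and missed the call, with a nearest pair 24.4 points apart. MACROD2, a macrodomain hydrolase and no adhesion gene, had 76.4% and 75.4% in DKO, 43.1% and 47.4% in SKO, and 85.1% and 82.2% in sgControl libraries. DPP6 (chr7:153748133-154894285), the paralog of DPP10, had 48.3% and 47.4% in DKO, 68.5% and 67.0% in SKO, and 37.2% and 27.6% in sgControl libraries, a gain of 35.39 points in SKO (SE 3.77, limma adjusted p = 0.00783). Chromosome 7 as a whole held fewer H3K9me3 bases and more H3K27me3 bases in SKO than in sgControl cells. The part of these chromosome-wide differences in the DPP6 values was not tested. The catenins CTNNA2 and CTNNA3 had at most 20.0% H3K9me3 in any library.

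The genes are not independent, since several are neighbours on 1 chromosome. Of 8 on chromosome 3, 7 lost H3K9me3 in SKO and 7 in DKO, beside the 24.6% in SKO and 23.1% in DKO of all genes that could be called. The other, NLGN1, could not be called lost, with 7.48% and 15.5% in sgControl libraries. The 5 genes on chromosome 11 could not be called lost either, since each was under 25% in sgControl libraries. H3K9me3 domains covered 63.3 ± 1.00 Mb of chromosome 3 in DKO, 56.7 ± 0.265 Mb in SKO and 95.1 ± 1.99 Mb in sgControl cells. Within 500 kb on either side, all 17 genes lost in SKO had a lower H3K9me3 share in the flanks too. The median flank difference was −42.90 points, from −79.24 around ROBO1 to −11.40 around MACROD2, beside −65.40 for the gene bodies. A lower flank share was not confined to these 17. Of the genes not called lost in SKO, CNTNAP2, DPP6, DSCAM, OPCML and PTPRT had a higher mean flank share, and the rest a lower one. CNTNAP4 went from 42.2% in sgControl to 3.64% in SKO, and DPP6 from 39.8% to 66.8%. Over all the genes described here the mean flank share was 48.70% in sgControl and 23.72% in SKO. Flanks of other genes were not measured.

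No gene of the 41 lost H3K27me3 by the rule, and 3 gained it. Losses were 0 of 37 in SKO, where 19.5% of all genes and 6.90% of the long genes that could be called lost it, and 0 of 37 in DKO, where 18.6% and 6.68% did. CNTN1, CNTNAP4 and ERBB4 gained it, 3 of 6 that could gain, in SKO (3.93% of all genes, 17.6% of the long genes) and in DKO (4.45% and 18.4%). The limma fit tested 40 of the 41 among 3685 genes. It called 3 lower and 8 higher in SKO, where 25% and 22.3% of genes tested were, and 7 lower and 6 higher in DKO, where 24.9% and 24.3% were. NRXN3 and SLIT3 were among the lower and CNTN5, MACROD2 and ROBO1 among the higher in both. With equal covered length, LRRTM4, LRRC4C and PTPRD were called lost in SKO and LRRTM4 and PTPRD in DKO, while the gained genes numbered 3 in each. The median difference over the 41 genes was −0.45 points in SKO and −0.46 in DKO.

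Taking both marks base by base, less body length carried the 2 together, and more lay under H3K27me3 alone, in the knockouts than in sgControl cells. Both marks were called in both libraries over 21.9% of the 47.1 Mb in DKO, 13.2% in SKO and 34.6% in sgControl cells. H3K27me3 alone held 49.3% in DKO, 63.8% in SKO and 34.0% in sgControl cells. H3K9me3 alone held 1.15% in DKO, 1.81% in SKO and 2.93% in sgControl cells, and neither mark held 7.95% in DKO, 6.58% in SKO and 6.76% in sgControl cells. The libraries of a genotype differed over the remaining 19.6% in DKO, 14.7% in SKO and 21.7% in sgControl cells. Of the 16.3 Mb with both marks in sgControl cells, 29.8% was under H3K27me3 alone in DKO and 51.3% in SKO, and 48.7% still had both marks in DKO and 28.6% in SKO. Neither mark remained over 0.123% of it in DKO and 0.186% in SKO. Over the genome the same share under H3K27me3 alone was 22.7% in DKO and 33.5% in SKO.

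**Figure D2:**
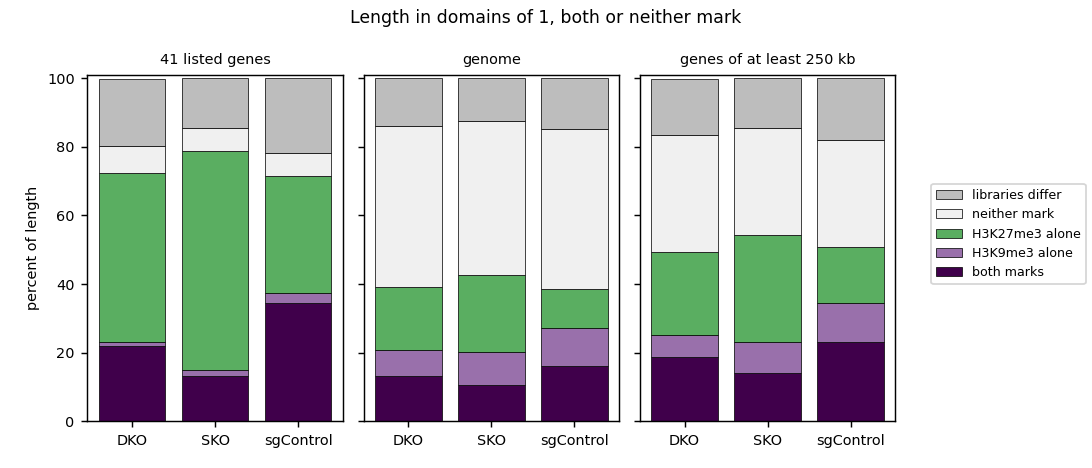
Percent of length in domains of both marks, H3K9me3 alone, H3K27me3 alone or neither, in DKO, SKO and sgControl cells, for the 41 genes, the genome and genes of at least 250 kb. A base counts where both libraries of the genotype have the same state, and grey is length where they differ. In the 41 genes H3K27me3 alone took 49.3% in DKO, 63.8% in SKO and 34.0% in sgControl cells.

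The length that lost H3K9me3 was taken as bases in domains of both sgControl libraries and of neither library of a knockout. In SKO this was 9.05 Mb in 583 stretches, of which 96.3 ± 0.0186% lay in H3K27me3 domains in SKO and 93.6 ± 0.0750% in sgControl cells. In DKO it was 5.77 Mb in 455 stretches, of which 89.8 ± 0.294% lay in H3K27me3 domains in DKO and 85.7 ± 0.0686% in sgControl cells. Most of the lost length was therefore under H3K27me3 in sgControl cells already. The same held for the length that kept H3K9me3, of which 95.9 ± 0.142% lay in H3K27me3 domains of sgControl cells for DKO and 88.2 ± 0.317% for SKO, so the sgControl share was higher in lost than in kept length for SKO and lower for DKO. Over the genome these shares were 80.4% in SKO and 67.0% in sgControl cells for the SKO losses, and 65.4% in DKO and 54.6% in sgControl cells for the DKO losses. The longest lost stretch was 120.8 kb in CNTN4 for SKO and 89.60 kb in ROBO1 for DKO.

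H3K27me3 gain and H3K9me3 loss met on the same bases most widely, by kb, in ERBB4 and ROBO1. In ERBB4, H3K27me3 was gained over 429 kb in DKO and H3K9me3 lost over 306 kb, of which 138 kb coincided. In SKO the gain was 515 kb, the loss 303 kb and the shared length 158 kb, which is 30.7% of the gain and 52.2% of the loss. In ROBO1, H3K27me3 was gained over 175 kb in each knockout, of which 70.4 kb (40.2%) had lost H3K9me3 in DKO and 112 kb (63.9%) in SKO. The H3K9me3 loss there was 600 kb in DKO and 825 kb in SKO, of which 11.7% and 13.6% coincided with the gain. The bodies spanned 1170 kb (ROBO1) and 1160 kb (ERBB4), so losses this wide overlap much of any stretch. Whether the overlaps exceed the share of the body that lost H3K9me3 was not tested. In CNTNAP2, 38.4 kb coincided in DKO, 41% of its gain of 93.6 kb, and 0 kb in SKO, and in MACROD2 2.40 kb in DKO and 20.0 kb in SKO. In CNTN1 and CNTNAP4, 0 kb coincided, since none of the gained length had lost H3K9me3.

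**Figure D3:**
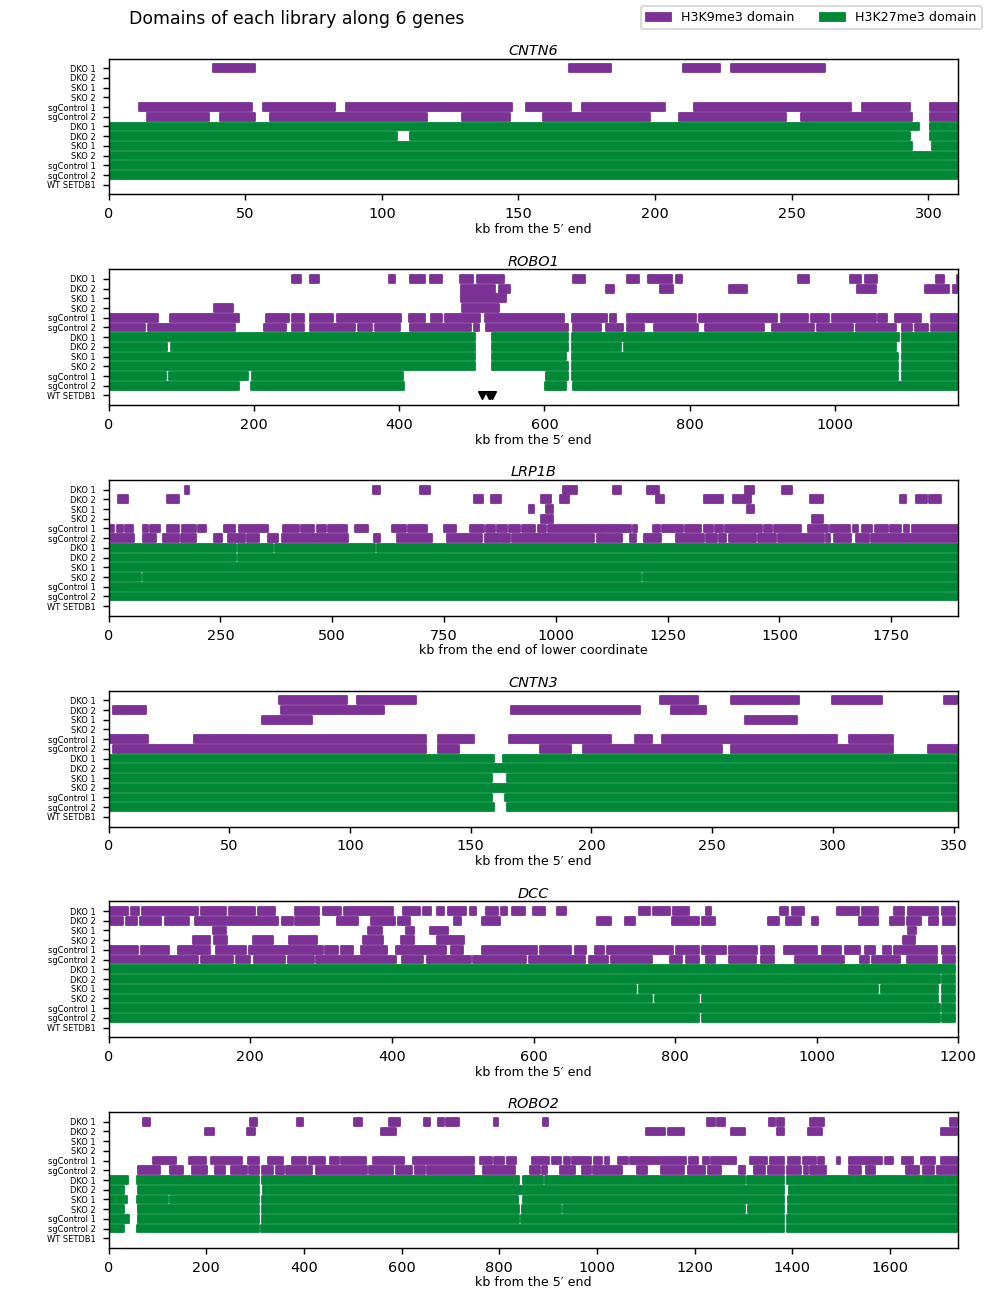
Domains of H3K9me3 (purple) and H3K27me3 (green) in each library along the 6 genes with the largest H3K9me3 difference in SKO, in kb from the 5′ end (LRP1B: from the end of lower coordinate), with triangles for SETDB1 peaks found in both WT libraries. H3K9me3 domains fill the sgControl rows and are scattered or absent in the DKO and SKO rows, except in DCC, where DKO kept 60.3% and 51.2%, whereas H3K27me3 runs nearly unbroken in all rows but for a gap in the middle of ROBO1 that was wider in sgControl cells.

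Position along the gene made little difference. In the 31 genes with a known strand, the mean H3K9me3 share of each of 10 equal parts of the body ranged from 28.6% to 36.0% in DKO, from 16.6% to 22.3% in SKO and from 40.6% to 51.2% in sgControl cells. The order of the genotypes was the same in all 10. For H3K27me3 the ranges were 83.7% to 92.3% in DKO, 85.9% to 92.6% in SKO and 76.8% to 89.2% in sgControl cells.

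**Figure D4:**
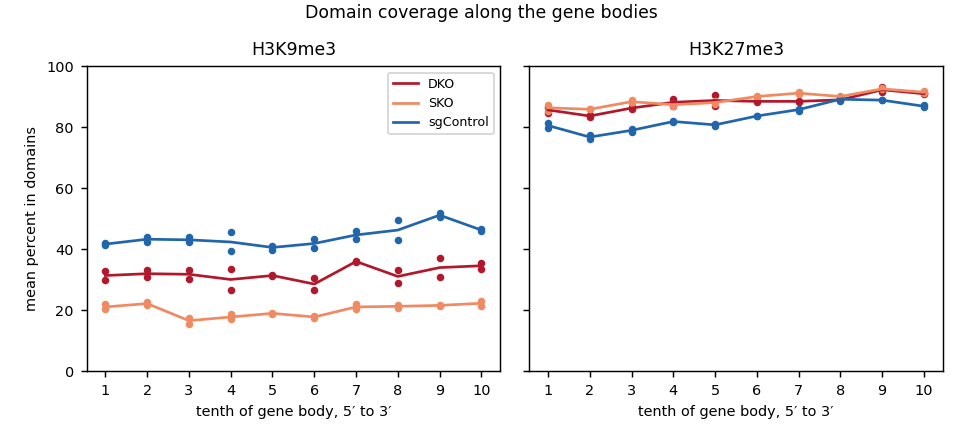
Mean percent in domains of each of 10 equal parts of the gene body, from the 5′ to the 3′ end, over the 31 genes with a known strand. Lines are genotype means and points single libraries (n = 2). H3K9me3 runs flat along the body in each genotype, with sgControl highest and SKO lowest, and H3K27me3 in sgControl is lowest, at 76.8%, in part 2.

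H3K9me3 in the knockouts, kept or gained, lay in fewer pieces, and its longest stretches were shorter. Domains touching the 41 genes numbered 401.0 ± 76.4 in DKO, 283.5 ± 50.2 in SKO and 577.0 ± 22.6 in sgControl cells. The median longest covered stretch per gene was 37.20 ± 6.22 kb in DKO, 25.60 ± 5.66 kb in SKO and 68.00 ± 0 kb in sgControl cells. For H3K27me3, domains numbered 355.0 ± 12.7 in DKO, 355.5 ± 12 in SKO and 275.5 ± 20.5 in sgControl cells, and the median longest stretch was 320.2 ± 6.51 kb in DKO, 331.2 ± 1.13 kb in SKO and 429.2 ± 32.2 kb in sgControl cells. H3K27me3 thus lay in more and shorter pieces in the knockouts. Piece numbers and stretches of both marks come from the full lists, whose covered length differed between genotypes. They were not taken with equal covered length or over other genes. Its mean share of the bodies was higher there in the full lists and lower with equal covered length, as given above. Read density inside a gene's H3K9me3 domains, relative to all domains of the library, was taken over 23 genes. These were the genes above a minimum covered length in every library, which left out CTNNA2, for example, although it had domains in each. The median was 0.752 ± 0.00643 in DKO, 0.719 ± 0.00207 in SKO and 0.887 ± 0.00479 in sgControl cells. The median gene was therefore below the library's average density in each genotype, although single genes such as NEGR1 and ERBB4 lay above it in some libraries.

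SETDB1 peaks were sparse in the 41 genes, and none had its centre where H3K9me3 was lost. The WT lists held 23427 and 24366 peaks, of which 12304 overlapped between libraries, and 30 of these shared peaks lay in the 41 genes or within 2 kb. That is 0.635 per Mb (exact Poisson 95% interval 0.428 to 0.906, counting error only), beside 2.68 (2.54 to 2.83) in genes of at least 250 kb and 4.86 (4.74 to 4.98) in all genes. Shared peaks stood in 13 of the 41 genes, with 5 in ERBB4, 4 each in ROBO1, NEGR1 and NRG1, 3 each in CNTNAP2 and NRXN3, and 1 each in CSMD2, CTNNA2, DPP6, DPP10, LSAMP, MACROD2 and PTPRT. The strongest by the authors' fold was chr1:72137094-72139171 in NEGR1, with a fold of 14.45 and a −log10 p of 54.34 in replicate 1, and 11.84 and 32.23 in replicate 2. It lay in H3K9me3 domains of all 6 libraries.

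No shared SETDB1 peak had its centre in the length that lost H3K9me3. The count was 0 in the 9.05 Mb lost in SKO, which allows at most 0.407 per Mb, and 0 in the 5.77 Mb lost in DKO, which allows at most 0.639 per Mb (exact Poisson bounds). In the length that kept H3K9me3 it was 13 in 8.34 Mb for DKO, or 1.56 per Mb (0.830 to 2.67), and 13 in 5.35 Mb for SKO, or 2.43 per Mb (1.29 to 4.15). Length with no H3K9me3 in either genotype held 1 in 18.6 Mb for DKO, or 0.0539 per Mb (0.00136 to 0.300), and 1 in 19.9 Mb for SKO, or 0.0502 per Mb (0.00127 to 0.280), so lost length, at 0, was not set apart from unmarked length. A shared peak, in CNTNAP2, touched H3K9me3 domains of both sgControl libraries and of neither DKO library. Length that gained H3K9me3 held 7 in 1.03 Mb for DKO, or 6.80 per Mb (2.73 to 14), and 7 in 0.689 Mb for SKO, or 10.2 per Mb (4.09 to 20.9). Of the 30 peaks, 26 and 24 touched H3K9me3 domains in the DKO libraries, 28 and 26 in the SKO libraries, and 20 and 16 in the sgControl libraries. Over all 12304 shared peaks the DKO shares were 84.1% and 82.5%, the SKO shares 85.1% and 84.9%, and the sgControl shares 69.8% and 67.0%, so the same order held across the genome. SETDB1 was mapped in WT cells alone, and whether its peaks moved in the knockouts was not measured.

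Among genes called lost, part of the H3K9me3 kept in every library lay at SETDB1 peaks in ROBO1, ERBB4, NEGR1, DPP10 and MACROD2. ROBO1 kept 28.8 kb in all and ERBB4 21.6 kb. The ROBO1 island at its peaks, chr3:79236001-79248800, spanned 12.8 kb, lay 519 kb from the start site and held 3 of the gene's 4 shared peaks. H3K27me3 gained in every knockout library over 72.8 kb on one side of it (chr3:79167201-79240000, which reaches into the island) and over 97.6 kb on the other (chr3:79264001-79361600). The ERBB4 island, chr2:211699201-211718400, spanned 19.2 kb, lay 820 kb from the start site and held 3 of its 5 shared peaks. In NEGR1, DPP10 and MACROD2 the island at a peak was a small part of the kept length. DPP10 kept 261 kb, with an island of 3.20 kb, and MACROD2 434 kb, with an island of 14.4 kb. NEGR1 kept 211 kb, with its island at chr1:72128801-72144800. LSAMP kept 52.0 kb, and its shared peak did not lie on it. Of the other genes called lost, CADM2, CNTN3, CNTN6, CSMD3, LRP1B, ROBO2 and SGCZ kept no base of H3K9me3 in all 6 libraries and had no shared SETDB1 peak. Kept H3K9me3 also stood without a shared peak, over 314 kb in CSMD1, 142 kb in CNTNAP5, 116 kb in CNTN4, 87.2 kb in SLIT3 and 44.0 kb in DCC. Of the 17 genes lost in SKO, ROBO1, LSAMP, ERBB4, DPP10 and MACROD2 had shared peaks, 12 in all, 8 of them on H3K9me3 kept in every library. Of the 23 genes called lost in neither knockout, 7 had shared peaks, 14 in all, 4 of them on H3K9me3 kept in every library. Taking all the genes described here, 13 of 30 shared peaks (43.3%) touched H3K9me3 domains in every library. Across the genome 7574 of 12304 (61.6%) did so. Whether the peaks of the lost genes differ from that share was not tested.

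A list of 75 paralogs and partners of these genes changed in both directions. H3K9me3 was lost in 12 of 27 in SKO and 14 of 27 in DKO that could lose it, where 24.6% of all genes in SKO and 23.1% in DKO lost it. It was gained in 3 of 60 in SKO and 2 of 60 in DKO, where 4.77% of all genes in SKO and 4.46% in DKO gained it. In DKO against SKO it was lower in 3 of 14 and higher in 2 of 66, where 7.26% and 1.65% of all genes were. Many of these genes lie on chromosome 7, whose H3K9me3 length was low in DKO. They are SEMA3A, SEMA3C, SEMA3D, SEMA3E and SGCE among the losses of both knockouts, and EGFR and KCND2 among those of DKO. The 3 genes lower in DKO than in SKO, NRCAM, KCND2 and PLXNA4, lie there too. Counts of this list without that chromosome were not taken. CHL1, a neural adhesion molecule on chromosome 3, had 46.6% and 29.3% in DKO, 0% and 0% in SKO, and 80.5% and 77.1% in sgControl libraries. SKO was lowest there, as in CNTN3 and ROBO2. IGLON5, the remaining IgLON gene, had 68.4% and 79.2% in DKO, 100% and 100% in SKO, and 0% and 0% in sgControl libraries. SEMA3E, a semaphorin on chromosome 7, had 0% and 0% in DKO, 12.9% and 0.547% in SKO, and 86.3% and 75.7% in sgControl libraries, and the part of that chromosome's low H3K9me3 was not tested.

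H3K27me3 in the same list was lost in 4 of 33 in each knockout, and gained in 9 of 47 in SKO and 7 of 47 in DKO, where 19.5% of all genes in SKO and 18.6% in DKO lost it, and 3.93% in SKO and 4.45% in DKO gained it. No gene of the list was called between DKO and SKO, where 2.22% of all genes were lower and 0.843% higher. SEMA3C, also on chromosome 7, had 100% and 100% in DKO, 97.8% and 100% in SKO, and 0% and 0% in sgControl libraries, and it lost H3K9me3 as ERBB4 did, with 20.0% and 6.23% in DKO, 2.66% and 13.3% in SKO, and 71.6% and 81.4% in sgControl libraries. NTN4, a netrin, had 91.6% and 93.4% H3K27me3 in DKO, 91.6% and 69.4% in SKO, and 0% and 0% in sgControl libraries. LRRC4B, a synaptic adhesion protein related to LRRC4C, had 12.4% and 12.4% in DKO, 10.9% and 7.76% in SKO, and 59.8% and 87.8% in sgControl libraries. SEMA3C, NTN4, NEO1, KCND2 and EFNA5 thus joined ERBB4 as genes with 0% H3K27me3 in sgControl libraries and a called gain in both knockouts.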

How the data were processed

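For each H3K9me3 or H3K27me3 library the authors deposited a list of domains from epic2, per the file names, a program that joins enriched windows into broad domains on an 800 bp grid. Each deposited domain carries a read count and a score, neither scaled to the spike-in. The deposited SETDB1 lists hold narrow peaks per library with the authors' score, signal (a fold) and −log10 p. Per the labels' protocols, fixed and sonicated chromatin received Drosophila S2 chromatin as a spike-in. The submitters' processing notes name the hg38 and dm6 builds, SICER, deepTools 3.5.6, FastQC 0.12.1 and Trim Galore 0.6.10. Not given in the sources used here are the aligner, the read filters, the treatment of multiply matching reads and the SETDB1 peak caller. Of 18 samples, 14 had files, and the 4 inputs were not analysed here. Gene bodies were read from RefSeq on GRCh38.p14, whose symbols matched all 41 genes.

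The percent of each gene body in domains was computed per library with Python 3.11.15, numpy 2.4.6, pandas 2.3.3, scipy 1.17.1 and matplotlib 3.10.9. With 2 libraries against 2, an exact permutation test cannot go below 1 in 3, so genes were called by non-overlap and a gap of 25 points. The limma 3.58.1 fit (R 4.3.3) took genes with a mean of at least 1% and was tested on simulated data. Values are given library by library for, in each role group, the 2 called genes with the largest difference per mark. The members, lists, rules and alternatives were chosen with earlier results of these data known. Same-numbered libraries of a mark did not deviate together gene by gene (correlations −0.01 to 0.05), so the calls did not pair libraries by number. This does not show that the numbers are arbitrary. Replicate 1 held more reads in domains than replicate 2 in every genotype and mark. Alternatives were other gaps, limma with and without a replicate block, the upper 50% of domains by score, equal covered length, leaving out chromosome 7, and leaving out each library.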

Additional observations from a re-analysis of the deposited data

How the results depend on the processing

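Over 15 results, 153 alternatives were run, of which 96 left the value close to that reported and 57 moved it. A count was taken as close within a factor of 1.5, and a share within the SD of the reported value. Some alternatives could hardly move a count, such as leaving out chromosome 7 where no called gene lay on it. The results are counts in 1 direction or shares, which cannot change sign. Depth limits the lists, since a domain too shallow to be called in 1 library is absent there, and no alternative can recover it.

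With a gap of 50 points, H3K9me3 losses numbered 10 in SKO and 5 in DKO and gains 0 in each, and DKO against SKO gave 0 losses and 0 gains. With a gap of 10 points, gains in DKO numbered 5, DKO against SKO gave 3 losses and 12 gains, and H3K27me3 losses numbered 3 in SKO and 2 in DKO. With equal covered length, H3K9me3 losses numbered 9 in SKO and 6 in DKO and gains 2 and 6, and H3K27me3 losses 3 and 2. Limma gave 2 H3K9me3 gains in SKO, 4 in DKO and 2 losses in DKO against SKO. For H3K27me3 it gave 3 losses and 8 gains in SKO, 7 and 6 in DKO, and 1 and 1 in DKO against SKO. With the replicate block, H3K9me3 in DKO against SKO gave 0 losses and 1 gain, OPCML, and H3K27me3 gave 3 losses and 7 gains in SKO and 6 and 6 in DKO. The block left H3K9me3 against sgControl at 19 losses and 1 gain in SKO and 14 and 3 in DKO. Among the upper 50% of domains, DKO gave 1 H3K9me3 gain (PTPRT), 2 losses against SKO and 1 H3K27me3 loss. Without chromosome 7, SKO had 0 H3K9me3 gains. Why these counts moved was not tested, apart from the stricter gap and the left-out chromosome, which remove calls by construction.

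Leaving out each library in turn gave 17 to 18 H3K9me3 losses in SKO, 12 to 14 in DKO and 6 to 9 gains in DKO against SKO. H3K27me3 losses then ranged from 0 to 1 in SKO (UNC5C without sgControl replicate 2) and from 0 to 1 in DKO (LRRTM4 without DKO replicate 1). The share of lost H3K9me3 length in H3K27me3 domains was 96.6% in SKO and 90.3% in DKO with 10 kb bins, 95.9% and 90.4% in the upper 50% of domains, 95.5% and 84.9% with equal covered length, and 96.3% and 89.5% without chromosome 7. It ranged over left-out libraries from 95.6% to 96.2% in SKO and from 90.7% to 91.2% in DKO. SETDB1 peaks in the 41 genes numbered 8 at a −log10 p of at least 10 in both libraries, and 61 to 79 where 1 library's list was used alone.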
